A study of Homo sapiens with 12 samples.

Results

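Replication licensing was examined through 10 named genes: MCM2, MCM3, MCM4, MCM5, MCM6, MCM7, CDC6, CDT1, GMNN and MCM10. They were taken by symbol from the 60617 genes in each file, and all 10 were among the 17620 genes expressed highly enough to be tested. RNA-seq had been carried out on SNU308, a human gallbladder cancer line, labelled as wild type, at day 3 after transfection with 25 nM siRNA. A non-targeting control siRNA (NTC) and 2 siRNAs against the adhesion molecule CEACAM6, siCEACAM6#2 and siCEACAM6#3, were used, with 4 replicates each. All 3 groups had therefore been transfected, the knockdown was transient, and a single line was used. The comparisons ask how the licensing genes stand after CEACAM6 knockdown.

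A eukaryotic cell licenses its replication origins before S phase. The origin recognition complex, with CDC6 and CDT1, loads the ring-shaped MCM2-7 helicase onto DNA in an inactive form, and geminin (GMNN) binds CDT1 to prevent a second round of loading. MCM10 acts later, when the loaded helicase is turned into a moving replication fork. Transcription of many of these genes is controlled by E2F factors and varies with the proliferative state of the cells.

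Promoter windows of the members were searched for E2F-type words, and matches are printed here as a description. Whether these words bear on the levels of the members was not tested. RefSeq windows of GRCh38.p14, from 250 bases before to 50 bases after each transcript start, were given for 8 of the 10 members, all but MCM4 and MCM5. The words searched on both strands were TTTCCCGC, TTTCGCGC, TTTGCCGC and TTTGGCGC, which can overlap one another. Other E2F-type forms were not searched, so a window without a match may still hold one. At least 1 of the listed words was found in 7 of the 8 members, all but MCM10, and in 3.99% of the 27305 genes with a window. Among the 12103 genes that had a window and were tested, the share was 6.35%. One match for each of the 7 genes is given 5′ to 3′ on the strand of the gene, with the word in capitals.
MCM2, chr3:127598403-127598430, plus strand: gtgaaccactTTTCGCGCgaaacctggt
MCM3, chr6:52284729-52284756, minus strand: gttcggaagtTTTCGCGCcggggtggag
MCM6, chr2:135876516-135876543, minus strand: attggtcaggTTTGGCGCgaaatctcca
MCM7, chr7:100101389-100101416, minus strand: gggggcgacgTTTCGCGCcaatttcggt
CDC6, chr17:40287876-40287903, plus strand: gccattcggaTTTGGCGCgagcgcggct
CDT1, chr16:88803744-88803771, plus strand: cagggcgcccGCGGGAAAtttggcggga
GMNN, chr6:24775323-24775350, plus strand: ctgggtcggtTTTGGCGCgctctcactt

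The MCM6 window is shown whole because it held 2 places at which a word on one strand overlapped a word on the other.
MCM6, chr2:135876394-135876693, minus strand: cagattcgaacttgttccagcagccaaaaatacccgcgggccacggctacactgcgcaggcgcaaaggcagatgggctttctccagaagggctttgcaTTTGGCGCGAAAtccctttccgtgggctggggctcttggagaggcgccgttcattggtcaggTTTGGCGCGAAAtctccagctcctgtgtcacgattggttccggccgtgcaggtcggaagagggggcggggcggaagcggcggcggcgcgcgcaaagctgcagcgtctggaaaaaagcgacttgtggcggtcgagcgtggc
The capitals mark both overlapping pairs. The word CCAAT, bound by NF-Y, was found on either strand in 6 of the 8 members (MCM3, MCM6, MCM7, CDC6, GMNN and MCM10) and in 39.7% of the genes with a window (42.5% of those tested). TTTGAA, the only letters searched for the cell cycle homology region, was found in none of the 8. It was found in 18.2% of the genes with a window (13.7% of those tested). These matches are letters in a window and do not show that a factor was bound in SNU308 cells.

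The knockdown was checked first. CEACAM6 had 524, 569, 596 and 619 CPM (counts scaled to library size) in NTC replicates 1 to 4. It had 353, 343, 286 and 329 CPM with siCEACAM6#2, and 423, 386, 424 and 438 CPM with siCEACAM6#3. Both siRNA groups lay below every NTC sample. CEACAM6 fell by 0.82 ± 0.07 (log2, SE; limma-voom adjusted p = 2.7e-05) with siCEACAM6#2 and by 0.46 ± 0.07 (adjusted p = 0.0151) with siCEACAM6#3.

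Total estimated counts ran from 21799476 to 22059456 per sample, so depth was nearly equal. All 7 epithelial markers were present, at a summed 8223 to 9384 TPM (abundance per transcript length, scaled to the library), whereas the summed markers of fibroblasts, leukocytes and endothelial cells each stayed between 1.35 and 4.72 TPM. The mitochondrial share of counts reached 12.9% in NTC, 13.3% with siCEACAM6#2 and 15.3% with siCEACAM6#3. The lowest member count in any sample was 281, for MCM10, and the highest was 5735, for MCM7.

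Levels between genes were compared in TPM, which corrects for transcript length. In NTC, MCM7 had the highest level of the 10 at 141 ± 6.83 TPM (SD, n = 4), above 95.3% of the genes tested. MCM4 followed at 99.1 ± 12.04 TPM, MCM2 at 64.3 ± 3.97 TPM and MCM5 at 46.8 ± 2.15 TPM. The ranges of these 4 helicase subunits did not overlap.

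MCM3 had 32.4 ± 2.00 TPM, CDT1 28.0 ± 1.99 TPM and GMNN 24.4 ± 1.62 TPM in NTC. The range of CDT1 overlapped that of MCM3 and that of GMNN, so CDT1 did not differ from either beyond the spread, whereas the ranges of MCM3 and GMNN were apart. CDC6 had 20.5 ± 0.380 TPM, MCM6 18.8 ± 1.32 TPM and MCM10 6.33 ± 0.576 TPM. MCM10 was the lowest, above 44.3% of the genes tested. The order of the means was the same with siCEACAM6#2 and with siCEACAM6#3, and when any 1 NTC replicate was left out.

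**Figure D1:**
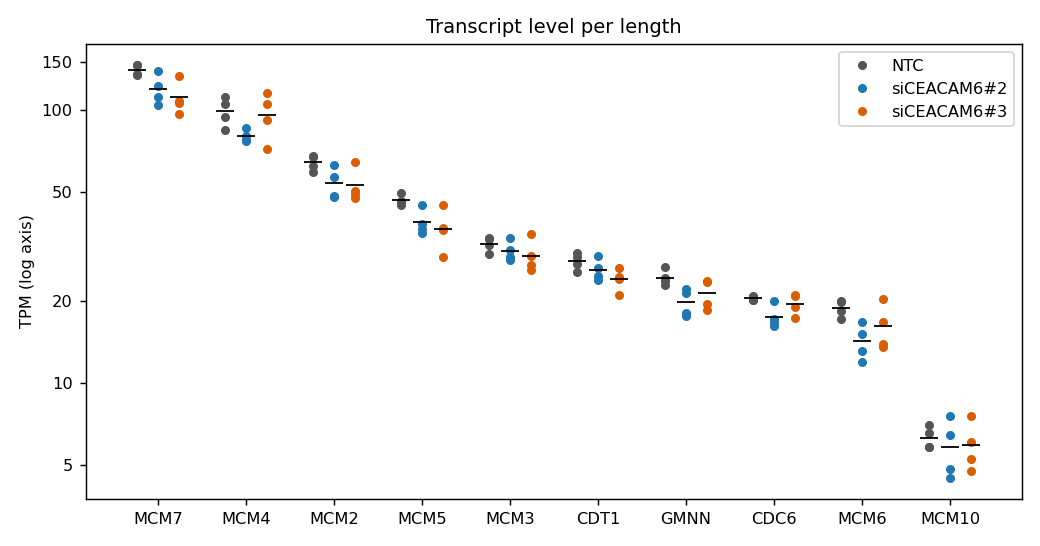
TPM on a log axis for the 10 licensing genes, ordered by their NTC mean, in 4 NTC (grey), 4 siCEACAM6#2 (blue) and 4 siCEACAM6#3 (orange) samples, with a black line at each group mean. MCM7 lies at the top (141 TPM in NTC) and MCM10 at the bottom (6.33 TPM) in every group.

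The 6 MCM2-7 subunits enter the ring in equal numbers, but their transcripts were not at equal levels. In NTC the highest subunit was 7.48 ± 0.273 times the lowest (SD, n = 4), as MCM7 held 35.0% of the summed MCM2-7 TPM and MCM6 held 4.68%. The summed level was 402 ± 26.5 TPM in NTC, 338 ± 33.8 TPM with siCEACAM6#2 and 343 ± 51.2 TPM with siCEACAM6#3. These ranges overlapped, with 376 to 430 TPM in NTC against 312 to 384 TPM and 293 to 414 TPM.

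The share of each subunit within that sum was described without a test. Of 12 comparisons with NTC (6 subunits with each siRNA), 3 had ranges that did not overlap, 2 with siCEACAM6#2 and 1 with siCEACAM6#3, and no subunit was apart from NTC with both. MCM3 held 7.93% to 8.33% in NTC and 8.85% to 9.33% with siCEACAM6#2, ranges that did not overlap. MCM6 held 4.57% to 4.80% in NTC and 3.82% to 4.43% with siCEACAM6#2, again apart. With siCEACAM6#3 the MCM7 share was 32.2% to 33.2%, below the 34.1% to 36% of NTC. The mean MCM4 share was 28.0% with siCEACAM6#3 and 24.6% in NTC, but the ranges overlapped (24.6% to 31.4% against 22.5% to 26.0%). The shares are parts of 1 sum, so a shift in 1 subunit moves the others. No share over all genes stands beside the count of ranges apart. The shares of MCM3 (8.05% to 8.87%) and MCM6 (4.21% to 4.998%) with siCEACAM6#3, and that of MCM7 (33.6% to 36.3%) with siCEACAM6#2, overlapped NTC.

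The members did not respond alike in all replicates of an siRNA, and this bears on every comparison that follows. On average over the 10 genes, siCEACAM6#2 replicate 1 stood 0.00 log2 units from the NTC mean, while replicates 2, 3 and 4 stood at -0.32, -0.36 and -0.20. The siCEACAM6#3 replicates 1 to 4 stood at 0.04, -0.34, -0.21 and -0.22. The NTC samples themselves ran from -0.06 to 0.05. Replicate 1 of each siRNA thus lay within the NTC samples, and the other 6 knockdown samples lay below all of them.

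Counted gene by gene, 2, 9, 10 and 10 of the 10 members were below the lowest NTC sample in siCEACAM6#2 replicates 1 to 4. Of all 17620 genes, 24.7%, 28.1%, 28.3% and 23.3% were below the lowest NTC sample in those 4 samples. The corresponding numbers for siCEACAM6#3 were 2, 9, 8 and 9 members, beside 23.9%, 31.7%, 26.2% and 30.3% of all genes. CEACAM6 itself was below the lowest NTC sample in all 8 knockdown samples, replicate 1 included. Mitochondrial transcripts took 12.3%, 13.3%, 13.2% and 12.2% of the counts in siCEACAM6#2 replicates 1 to 4, and 12.5%, 15.3%, 14.3% and 14.6% in those of siCEACAM6#3. Their part in the pattern was not tested.

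**Figure D2:**
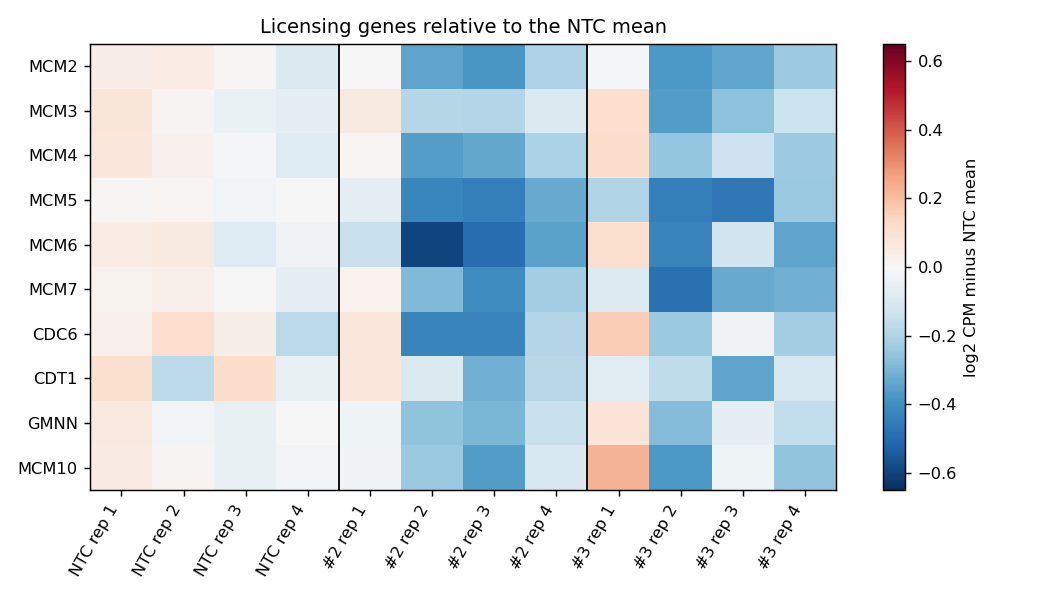
Each cell is a gene's log2 CPM in 1 sample minus its mean over the 4 NTC samples, from blue (lower) to red (higher), with genes in rows and the 12 samples in columns. The columns of replicate 1 of siCEACAM6#2 and siCEACAM6#3 are pale or red for most genes, and the columns of replicates 2 to 4 are blue for nearly all.

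With siCEACAM6#2, the fitted level of all 10 members was below NTC, but none passed the threshold of a Benjamini-Hochberg adjusted p under 0.05 in limma-voom. Of all genes tested, 1.25% passed and 49.9% had a fitted change below 0. The members' median log2 fold change was -0.22, against 0.00 for all genes, and they ran from -0.40 (MCM6) to -0.10 (MCM3). At an unadjusted p under 0.05, 7 members were lower (MCM2, MCM4, MCM5, MCM6, MCM7, CDC6 and GMNN), as were 7.12% of all genes.

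With siCEACAM6#3, all 10 members were again fitted below NTC and none passed, where 0.0681% of all genes passed and 51.1% were fitted below 0. Their median log2 fold change was -0.17, against 0.00 for all genes, and they ran from -0.34 (MCM5) to -0.08 (CDC6). At an unadjusted p under 0.05, 3 members were lower (MCM2, MCM5 and MCM7), as were 6.50% of all genes. Both comparisons use the same 4 NTC samples and are not independent of each other. In RNA from whole cultures, fewer cells in a given phase of the cycle and less RNA per cell cannot be told apart.

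For the average of both siRNAs against NTC, none of the 10 members passed, where 0.227% of all genes passed. At an unadjusted p under 0.05, 5 members were lower (MCM2, MCM4, MCM5, MCM6 and MCM7), as were 6.82% of all genes. All 10 were fitted below 0, against 50.9% of all genes, with a median of -0.17. The edgeR quasi-likelihood test also called no member in these 3 comparisons, where it called 254, 13 and 55 of all 17620 genes. DESeq2 called 2 members in each: MCM5 and MCM6 with siCEACAM6#2, and MCM5 and MCM7 with siCEACAM6#3 and for the average. DESeq2 also called more of all genes, with 534, 221 and 337 against 221, 12 and 40 in limma-voom.

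**Figure D3:**
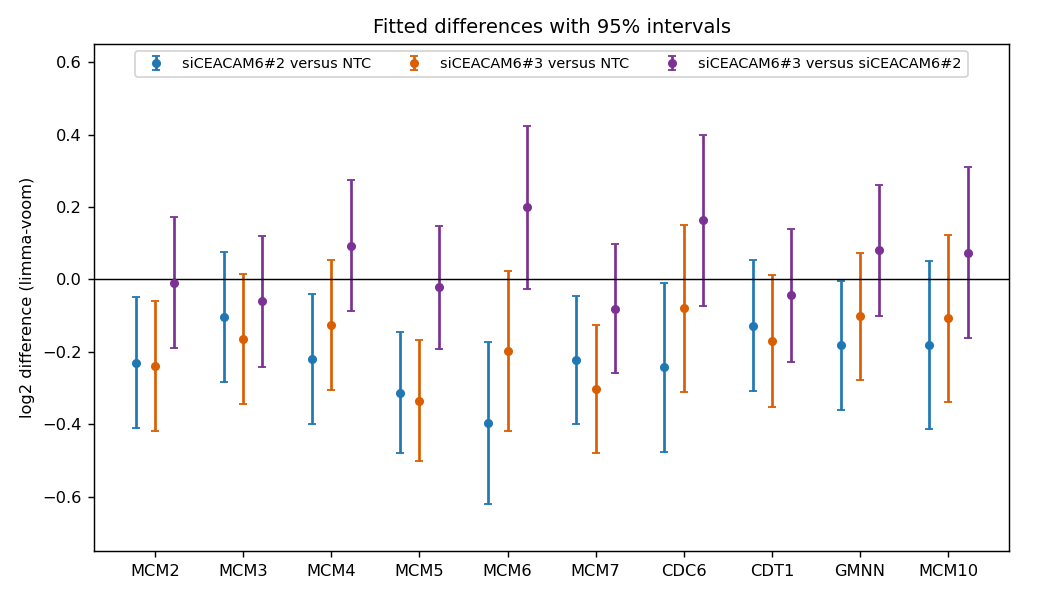
Fitted log2 difference (points) with its 95% interval (bars) for each licensing gene, for siCEACAM6#2 versus NTC (blue), siCEACAM6#3 versus NTC (orange) and siCEACAM6#3 versus siCEACAM6#2 (purple). All blue and orange points lie below 0, the farthest being MCM6 with siCEACAM6#2 at -0.40, and every purple interval spans 0.

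MCM5, a helicase subunit, had the smallest p of the members. The gene (ENSG00000100297) lies on chromosome 22 at 35400134 to 35425431 in GRCh38 on the plus strand. It had 81.4, 81.5, 79.8 and 80.9 CPM in NTC replicates 1 to 4. With siCEACAM6#2 it had 77.6, 60.4, 59.5 and 64.5 CPM, and with siCEACAM6#3 it had 70.6, 59.6, 58.7 and 68.5 CPM. In CPM every one of the 8 knockdown samples was below the lowest NTC sample, a pattern that 0.874% of all genes shared. In TPM this separation was not complete. Replicate 1 of siCEACAM6#2 (45.0 TPM) and of siCEACAM6#3 (44.9 TPM) lay just above the lowest NTC sample (44.8 TPM).

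The NTC values of MCM5 were close together, at 80.9 ± 0.776 CPM, against 65.5 ± 8.36 CPM with siCEACAM6#2 and 64.3 ± 6.11 CPM with siCEACAM6#3 (SD, n = 4). The log2 fold change of MCM5 was -0.31 ± 0.08 (SE; adjusted p = 0.0655) with siCEACAM6#2 and -0.34 ± 0.08 (adjusted p = 0.128) with siCEACAM6#3. For the average of both siRNAs it was -0.32 ± 0.07, with a 95% interval from -0.47 to -0.18 and an adjusted p of 0.0592, and MCM5 ranked 57 of 17620 genes by p. For the average, MCM5 passed in 7 of 25 alternatives (adjusted p from 0.00186 to 0.263). Of the fits that left out 1 replicate, it passed without siCEACAM6#2 replicate 1 (adjusted p = 0.00724), siCEACAM6#3 replicate 1 (0.0267) or siCEACAM6#3 replicate 4 (0.0332). Those fits called 204, 190 and 189 of all genes for the average, against 40 in the main fit. With siCEACAM6#2 alone, MCM5 passed in 7 of 25 (adjusted p from 0.00322 to 0.383). These included the fits without siCEACAM6#2 replicate 1 (adjusted p = 0.00843) and without siCEACAM6#3 replicate 1 (adjusted p = 0.0428). The same fits called 322 and 319 of all genes with siCEACAM6#2, against 221 in the main fit. With siCEACAM6#3 alone, MCM5 passed in 5 of 25 (adjusted p from 0.0151 to 0.361). These included the fits without siCEACAM6#2 replicate 1 (adjusted p = 0.0482) and without siCEACAM6#3 replicate 1 (adjusted p = 0.0345). For siCEACAM6#3 these fits called 29 and 258 of all genes, against 12 in the main fit.

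MCM6 (ENSG00000076003), another helicase subunit, lies on chromosome 2 at 135839626 to 135876443 on the minus strand. It had 55.5, 55.9, 50.6 and 52.9 CPM in NTC. With siCEACAM6#2 it had 48.6, 35.5, 38.0 and 42.1 CPM, all below NTC, as in 5.42% of all genes. With siCEACAM6#3 it had 57.6, 39.8, 49.2 and 42.3 CPM, where replicate 1 was above every NTC sample and the other 3 were below.

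The log2 fold change of MCM6 was -0.40 ± 0.11 (adjusted p = 0.0807) with siCEACAM6#2 and -0.20 ± 0.10 (adjusted p = 0.448) with siCEACAM6#3. With siCEACAM6#2, MCM6 passed in 7 of 25 alternatives (adjusted p from 0.00453 to 0.257). Of the fits that left out 1 replicate, it passed without siCEACAM6#2 replicate 1 (adjusted p = 0.0275), siCEACAM6#3 replicate 1 (0.0268) or siCEACAM6#3 replicate 2 (0.0486). Those fits called 322, 319 and 322 of all genes with siCEACAM6#2, against 221 in the main fit.

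MCM7 (ENSG00000166508), the most abundant member, lies on chromosome 7 at 100092233 to 100101940 on the minus strand. It holds the microRNA genes MIR25, MIR93 and MIR106B on its own strand, and AP4M1 overlaps it on the opposite strand at 5.22 TPM. It had 254, 255, 249.7 and 239 CPM in NTC and 254, 205, 189 and 213 CPM with siCEACAM6#2. It had 234, 178, 199 and 201 CPM with siCEACAM6#3. The siCEACAM6#3 samples were all below NTC, as in 3.29% of all genes, and siCEACAM6#2 replicate 1 was within the NTC range.

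The log2 fold change of MCM7 was -0.22 ± 0.08 (adjusted p = 0.237) with siCEACAM6#2 and -0.30 ± 0.08 (adjusted p = 0.170) with siCEACAM6#3. With siCEACAM6#3, MCM7 passed in 3 of 25 alternatives (adjusted p from 0.0312 to 0.411). Of the fits that left out 1 replicate, it passed only without siCEACAM6#3 replicate 1, at -0.37 (adjusted p = 0.0312). That fit called 258 of all genes with siCEACAM6#3, against 12 in the main fit.

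MCM2, a subunit on which activating kinases act, had 169.6, 170.3, 165.5 and 154 CPM in NTC. It had 165 CPM in siCEACAM6#2 replicate 1 and 129.9, 127 and 143 CPM in replicates 2 to 4. With siCEACAM6#3 it had 164 CPM in replicate 1 and 127, 130.2 and 139.8 CPM in replicates 2 to 4. In both groups replicate 1 was inside the NTC range and the others were below it. The log2 fold changes were -0.23 ± 0.08 (adjusted p = 0.229) and -0.24 ± 0.08 (adjusted p = 0.262). For the average of both siRNAs the adjusted p was 0.176.

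MCM4, a subunit of the active helicase core, had 157, 152, 148 and 141 CPM in NTC. It had 151, 117, 119 and 129 CPM with siCEACAM6#2, where replicates 2 to 4 were below NTC. It had 162, 125, 136 and 127 CPM with siCEACAM6#3, where replicate 1 was above every NTC sample. The log2 fold changes were -0.22 ± 0.08 (adjusted p = 0.252) and -0.13 ± 0.08 (adjusted p = 0.562).

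MCM3, a helicase subunit through which MCM2-7 contacts the loading machinery, had the smallest fitted difference of the 6 subunits with siCEACAM6#2. It had 74.6, 71.5, 68.6 and 67.8 CPM in NTC, 73.5, 62.0, 61.8 and 66.0 CPM with siCEACAM6#2, and 76.0, 54.8, 58.8 and 64.0 CPM with siCEACAM6#3. Replicate 1 was within NTC in the first knockdown group and above it in the second. The log2 fold changes were -0.10 ± 0.08 (adjusted p = 0.653) and -0.16 ± 0.08 (adjusted p = 0.436).

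Among the loaders, CDC6, the ATPase that brings MCM2-7 to the origin recognition complex, had 34.9, 36.9, 35.2 and 30.4 CPM in NTC. It had 36.1, 25.4, 25.4 and 30.0 CPM with siCEACAM6#2 and 38.3, 29, 33.8 and 29.4 CPM with siCEACAM6#3. Both knockdown groups overlapped NTC. Its log2 fold changes were -0.24 ± 0.11 (adjusted p = 0.348) and -0.08 ± 0.11 (adjusted p = 0.806).

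CDT1, the loader that geminin inhibits, had 55.8, 46.2, 56.2 and 50.1 CPM in NTC, the widest NTC spread among the members after scaling to the mean. It had 54.6, 48.7, 41.8 and 45.7 CPM with siCEACAM6#2 and 49.3, 46.3, 40.9 and 48.3 CPM with siCEACAM6#3. All 3 groups overlapped. Its log2 fold changes were -0.13 ± 0.09 (adjusted p = 0.565) and -0.17 ± 0.09 (adjusted p = 0.426).

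GMNN, the inhibitor of licensing, had 18.3, 17.4, 17.0 and 17.6 CPM in NTC. It had 17.2, 14.6, 14.3 and 15.9 CPM with siCEACAM6#2, where replicate 1 was inside the NTC range, and 18.7, 14.5, 16.8 and 15.7 CPM with siCEACAM6#3, where replicate 1 was above it. The log2 fold changes were -0.18 ± 0.08 (adjusted p = 0.354) and -0.10 ± 0.08 (adjusted p = 0.639). The ratio of CDT1 to GMNN in TPM ran from 1.05 to 1.23 over the NTC samples. It was between 1.23 and 1.37 for siCEACAM6#2 and between 0.892 and 1.30 for siCEACAM6#3. The siCEACAM6#2 range was apart from that of NTC by a small gap (lowest 1.231 against highest 1.225), which was not tested. The siCEACAM6#3 range spanned that of NTC.

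MCM10, the factor of fork assembly and the lowest member, had 17.8, 17.4, 16.6 and 16.9 CPM in NTC. It had 16.9, 14.5, 13.3 and 16.0 CPM with siCEACAM6#2 and 20, 13.2, 16.8 and 14.3 CPM with siCEACAM6#3. The siCEACAM6#3 samples lay on both sides of NTC. The log2 fold changes were -0.18 ± 0.11 (adjusted p = 0.510) and -0.11 ± 0.11 (adjusted p = 0.724).

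**Figure D4:**
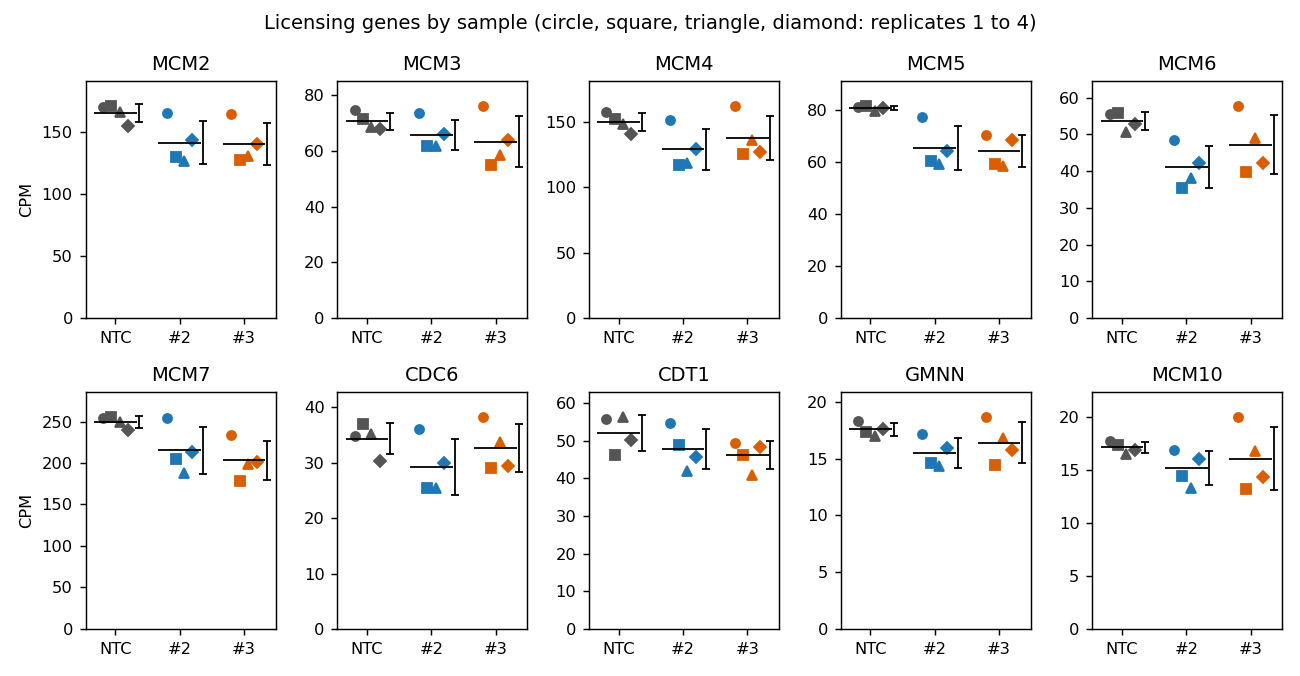
CPM of each licensing gene in every sample, with NTC in grey, siCEACAM6#2 in blue and siCEACAM6#3 in orange, replicates 1 to 4 as circle, square, triangle and diamond, the group mean as a line and the SD (n = 4) as a bar. The axes start at 0, and the circles of both siRNA groups lie at or near the NTC level for most genes, with MCM5 the one gene for which all 8 knockdown samples (58.7 to 77.6 CPM) are below NTC (79.8 to 81.5 CPM).

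The siRNAs were also compared directly. None of the 10 members differed between siCEACAM6#3 and siCEACAM6#2 by adjusted p (1.47% of all genes did), and none had an unadjusted p under 0.05 (13.3% of all genes did). Their fitted differences ran from -0.08 (MCM7) to 0.20 (MCM6), and 5 of the 10 were below 0, as were 51.2% of all genes. For MCM6 the 95% interval was -0.03 to 0.42 (adjusted p = 0.454), so a higher level with siCEACAM6#3 of up to that size was not excluded by these samples. For MCM5 the interval was -0.19 to 0.15 and for MCM2 it was -0.19 to 0.17. CEACAM6 differed, by 0.35 ± 0.07 (adjusted p = 0.0160), with the higher level under siCEACAM6#3.

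The members were alike across the 12 samples, which is given as a description since the samples share group and library differences. The correlation (Pearson's r) of log2 CPM with the mean of the other members ran from 0.857 (CDC6) to 0.967 (MCM2) for 9 of the 10, and was 0.607 for CDT1. Of the 45 pairs of members, 41 had r over 0.5, and the median was 0.815. After subtraction of the group means the median was 0.845, and CDT1 was again the lowest with 0.471.

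Among the 11559 genes with a mean CPM of at least 5, those with the highest r to the members' mean were LMNB1 (0.977), a lamin of the nuclear envelope, TYMS (0.976), the thymidylate synthase, DHX9 (0.973), an RNA helicase, and ASF1B (0.968), a histone chaperone. SFPQ and MAOB (both 0.966), MYBL2 and ELAVL1 (both 0.963), CDKN2C (0.960) and SAC3D1 (0.958) followed. The lowest were EIF4A2 (-0.973), ENSG00000270504 (-0.972), EEF1A1 (-0.967), SRPX2 (-0.962) and SH3YL1 (-0.958). In all, 124 genes had r over 0.9.

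Around the members, 59 genes of 7 lists were examined, of which 58 were tested (GMNC was not). With siCEACAM6#2, 2 of the 58 were called, both lower, where 1.25% of all genes were called. None was called with siCEACAM6#3 (0.0681% of all genes) or for the average (0.227%). RECQL4, a helicase needed for origin firing, had 25.7, 26.9, 25.5 and 24.9 CPM in NTC and 21.1, 18.9, 19.5 and 22.2 CPM with siCEACAM6#2. RECQL4 fell by 0.34 ± 0.08 (adjusted p = 0.0492), a call at the threshold that held in 11 of 25 alternatives, with adjusted p from 0.00569 to 0.788. It was lost with library size only, median-of-ratios factors, no filter and both TPM fits, and on leaving out any NTC replicate, any siCEACAM6#2 replicate or siCEACAM6#3 replicate 3. With siCEACAM6#3 it had 22.8, 18.0, 20.1 and 22.8 CPM, with a log2 fold change of -0.30 ± 0.08 (adjusted p = 0.148).

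DDB1, an adaptor of the ligase that degrades CDT1 in S phase, fell by 0.19 ± 0.04 with siCEACAM6#2 (adjusted p = 0.0422). It had 279.6, 279.8, 273 and 274 CPM in NTC and 256, 233, 236 and 246.5 CPM with siCEACAM6#2. With siCEACAM6#3 it had 271, 279.6, 269.6 and 279 CPM, at the NTC level. The call with siCEACAM6#2 held in 14 of 25 alternatives (adjusted p from 0.000806 to 0.216). It was lost with a replicate block and both TPM fits, and on leaving out any NTC replicate, siCEACAM6#2 replicates 2, 3 or 4, or siCEACAM6#3 replicate 3. DDB1 was the one gene of the lists called between the siRNAs, where 1.47% of all genes were called, by 0.18 ± 0.04 (adjusted p = 0.0484). That call held in 7 of 25 alternatives (adjusted p from 0.00133 to 0.502), and in 2 of the 12 that left out a replicate (siCEACAM6#2 replicate 1 or siCEACAM6#3 replicate 1).

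Genes of origin firing resembled the members in sign. All 14 were fitted below NTC with siCEACAM6#2 (median -0.18), 13 with siCEACAM6#3 (median -0.15), and all 14 for the average, with RECQL4 the only call. TICRR, which brings partners to the helicase for activation, had log2 fold changes of -0.31 (adjusted p = 0.115) and -0.33 (adjusted p = 0.165). CDC45, a subunit of the active helicase, had -0.32 (adjusted p = 0.254) and -0.45 (adjusted p = 0.179).

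The origin recognition complex was centred near 0, with 3 of its 7 genes below 0 with siCEACAM6#2 and 4 with siCEACAM6#3 (medians 0.01 and -0.01). ORC1 stood lowest at -0.34 (adjusted p = 0.449) and -0.37 (adjusted p = 0.427), and ORC2 had 0.12 (adjusted p = 0.473) and 0.06 (adjusted p = 0.783). All 4 genes of the other MCM proteins and partners were fitted below 0, with MCMBP at -0.10 and -0.18 and MCM8 at -0.16 and -0.12, none called.

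Of the CDT1 and CDC6 turnover genes, 8 and 9 of 9 were below 0 (medians -0.08 and -0.10), with PCNA, the sliding clamp, at -0.19 and -0.24. Of the E2F and RB control genes, 13 and 12 of 17 were below 0 (medians -0.10 and -0.12). TFDP1, a partner of E2F factors, had -0.29 (adjusted p = 0.146) and -0.16 (adjusted p = 0.492), whereas E2F5 had 0.29 (adjusted p = 0.127) and 0.17 (adjusted p = 0.435). E2F1 was near 0, at -0.03 and 0.01.

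In the list of quiescence and DREAM genes, 4 of 6 were below 0 with each siRNA (medians -0.03 and 0.00). MYBL2, a cell cycle transcription factor, had -0.37 (adjusted p = 0.188) and -0.39 (adjusted p = 0.236). RBBP4 had -0.11 and -0.06. MCIDAS, a geminin relative, had -0.38 (adjusted p = 0.363) and -0.24 (adjusted p = 0.597).

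**Figure D5:**
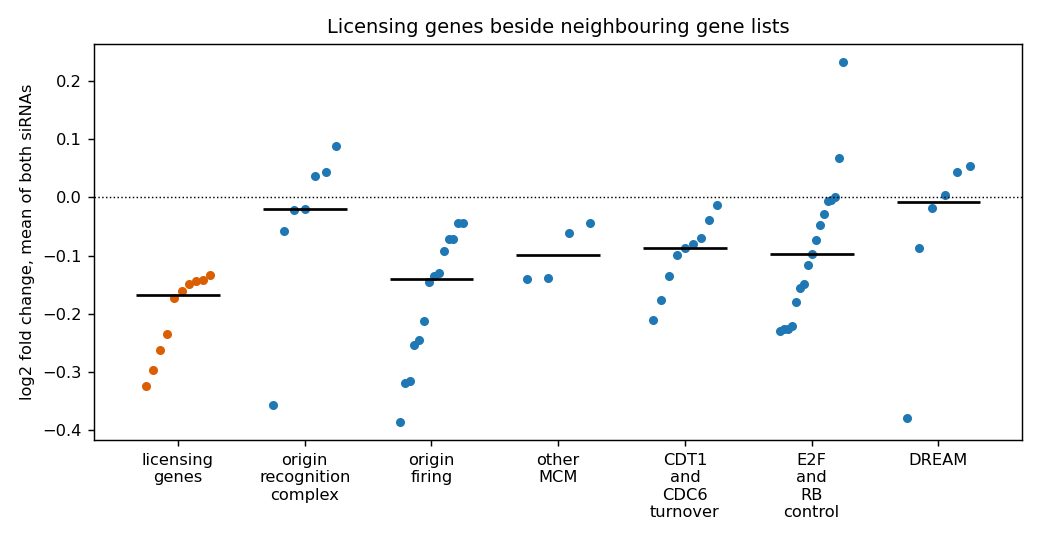
Fitted log2 fold change for the average of both siRNAs versus NTC, 1 point per tested gene and a black line at the list's median, for the licensing genes (orange) and 6 related lists (blue). All 10 licensing genes lie below 0 with a median of -0.17, the 14 origin firing genes all lie below 0, and the origin recognition complex lies around 0.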

How the data were processed

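The authors deposited estimated counts and TPM per gene, made with Trim Galore 0.6.4 and kallisto 0.4.6 on GRCh38.p13 according to the submitters' processing notes. The strand setting is not given in the sources used here. The study's methods give another version number for kallisto. The labels and the study's methods differ on read layout (paired-end or single-end, strand-specific by the labels only) and on the transfection reagent. In the deposited estimated counts, 69.3% of values above 0 were not whole, and they were rounded. Symbols matched 60357 identifiers.

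Counts were filtered with filterByExpr by group, scaled by TMM, weighted with voom and fitted in limma 3.58.1 (edgeR 4.0.16, R 4.3.3) with 3 group means over all 12 samples. Calls used a Benjamini-Hochberg adjusted p under 0.05 over 17620 genes within each contrast. CPM used TMM-scaled libraries. Pairs of replicates differed by a chi-square of 2.70 to 22.9 per gene, above sampling noise. P-values measure only the spread between these samples. Mitochondrial share, marker sums and promoter words were computed from the deposited values and RefSeq.

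Named genes were all 10 members, CEACAM6 and up to 5 called genes of each list. Up to 2 genes of each list with the smallest p for the average of both siRNAs were also named. These included TICRR and PCNA, whose lists already held a called gene. The 10 genes most and 5 least like the members' mean were added. CDC45, E2F1, and replicate 1 of each siRNA were singled out after their values were seen. The members and lists were chosen with earlier results of these data known. Alternatives were other scalings and filters, sample weights, robust empirical Bayes, a replicate block, edgeR quasi-likelihood, DESeq2 1.42.0, TPM with pseudocounts of 1 and 0.1, 2-group fits and leaving out each replicate.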

Additional observations from a re-analysis of the deposited data

Results flagged for a closer look

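CEACAM6 differed between the siRNAs, and this is flagged because 2 groups with the same target differed in their effect: its level was 0.35 log2 units higher with siCEACAM6#3 than with siCEACAM6#2 (limma-voom adjusted p = 0.0160). Among 36 groups of 4 samples, none of the members' values or of CEACAM6's had a highest or lowest sample far enough from the others to be flagged (a gap over 0.829 of the range).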

How the results depend on the processing

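Of 250 fitted log2 fold changes of members in each comparison with NTC, over 25 alternatives, none reversed, and 17, 8 and 14 came past the threshold for siCEACAM6#2, siCEACAM6#3 and the average. The number of members called, 0 as reported, was 5, 2 and 4 with sample weights, 2, 2 and 2 with DESeq2, 1, 0 and 1 with robust empirical Bayes, and 2 with siCEACAM6#2 in 2-group fits. Leaving out 1 replicate gave 0 to 2, 0 to 2 and 0 to 3 members. The calls came without siCEACAM6#2 replicate 1 (2, 1 and 2), without siCEACAM6#3 replicate 1 (2, 2 and 3), without siCEACAM6#3 replicate 2 (1 with siCEACAM6#2) and without siCEACAM6#3 replicate 4 (1 for the average). Over all genes, 322, 29 and 204 were called without siCEACAM6#2 replicate 1, and 319, 258 and 190 without siCEACAM6#3 replicate 1. Without siCEACAM6#3 replicate 2, 322 genes were called with siCEACAM6#2. Without siCEACAM6#3 replicate 4, 189 were called for the average. The main fit called 221, 12 and 40. The cause of these differences in calls was not tested.

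Deviations of same-numbered samples had r of -0.05 to 0.18 over 12 pairs (median 0.01, 2 over 0.1). Pairs of samples with different numbers had r of -0.21 to 0.15 (median -0.02). Of the 12 samples, 5 were closest to their own number. The highest r of the same-numbered pairs was between replicate 1 of siCEACAM6#2 and replicate 1 of siCEACAM6#3. These correlations are weak but cannot settle whether the numbers pair the samples, and the main fit treated the samples as unpaired. With a replicate block the members called were 2, 1 and 1, the other lists' calls over the 3 comparisons with NTC were 4 in place of 2, and all calls were 284, 87 and 118 in place of 221, 12 and 40.

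The calls of the other lists were 1 with library size only, with median-of-ratios factors and without a filter, 18 with sample weights, 5 with DESeq2, 0 on log2(TPM + 1) and log2(TPM + 0.1), and 0 to 7 when 1 replicate was left out (7 without siCEACAM6#2 replicate 1, 6 without siCEACAM6#3 replicate 1). Over all genes, sample weights called 1120, 382 and 899, DESeq2 534, 221 and 337, log2(TPM + 1) 5, 4 and 2, 2-group fits 600 with siCEACAM6#2 and 11 for the average, robust empirical Bayes 68 for the average, and no filter 24 with siCEACAM6#3. Between the siRNAs, 259 genes were called as reported, 560 with sample weights, 556 with DESeq2, 57 in 2-group fits and 49 on log2(TPM + 1). Leaving out 1 replicate gave 49 to 364, 2 to 258, 3 to 204 and 83 to 651 in the 4 comparisons. Library size alone put 59.6% of genes below 0 with siCEACAM6#3, with an all-gene median of -0.03.

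Between the siRNAs, 11 of 250 differences changed sign, none called, all on leaving out 1 replicate. Leaving out each replicate in turn gave -0.0845 to 0.0684 for MCM2, -0.150 to 0.00479 for MCM3, -0.0659 to 0.0622 for MCM5, -0.149 to 0.00157 for MCM7, -0.105 to 0.0234 for CDT1 and -0.0352 to 0.161 for MCM10.

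CEACAM6 remained called with siCEACAM6#2 and for the average in all 25 alternatives. With siCEACAM6#3 it remained called in 21 (adjusted p up to 0.0792), not without NTC replicate 2, 3 or 4 or siCEACAM6#3 replicate 3. Between the siRNAs it remained called in 20 (adjusted p up to 0.0696), not in both TPM fits, 2-group fits, or without replicate 3 of either siRNA.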
